A study of Mus musculus with 6 samples.

Results

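The sirtuins are the mammalian family of NAD-dependent protein deacylases, and their 7 genes, Sirt1 to Sirt7, were chosen by name from a table of 55471 genes measured by RNA-seq in the mouse hippocampus. The table held 6 libraries, each from the total RNA of a single male C57BL/6J mouse between 3 and 6 months of age: 3 p300-ifKO mice, with the genotype Ep300_flox;Camk2a_creERT2, and 3 control littermates. In the p300-ifKO (inducible forebrain knockout), the floxed gene for the acetyltransferase p300 is recombined by creERT2, a Cre recombinase that tamoxifen switches on. All mice, controls included, received 5 intragastric doses of tamoxifen at 20 mg/ml in corn oil. The labels are at odds on the controls: the protocol calls them creERT2-negative, while the description of each control library names Camk2a_creERT2. Esr1, part of which is carried by creERT2, had between 87.2 and 109 normalized counts (counts divided by the size factor of the library) in the controls and between 2416 and 4217 in the p300-ifKO mice. The driver acts in excitatory forebrain neurons, whereas the libraries were made from whole hippocampus, so a change confined to those neurons is diluted by transcripts of all other cells. In such bulk tissue, fewer cells of a type and less RNA per cell cannot be told apart.

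Sirtuins remove acetyl and other acyl groups from lysines and use up NAD in the reaction, so they are the counterpart of acetyltransferases such as p300 and are linked to the energy state of the cell. The members differ in where they work: Sirt1, Sirt6 and Sirt7 are mostly nuclear, Sirt2 is mostly cytosolic and is known in the brain as a protein of myelinating oligodendrocytes, and Sirt3, Sirt4 and Sirt5 are mitochondrial. Sirt1 acts on histones and on transcription factors such as p53 and FOXO proteins. Sirt6 acts on histone H3 and guards genome stability, and Sirt7 acts in the nucleolus and on ribosomal gene transcription.

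The genes lie on 5 chromosomes of GRCm38. Sirt1 (ENSMUSG00000020063) spans chromosome 10 from 63319005 to 63381704 on the minus strand, and Sirt6 (ENSMUSG00000034748) the same chromosome from 81621785 to 81627797, also on the minus strand. Sirt2 (ENSMUSG00000015149, plus strand) spans chromosome 7 from 28766735 to 28788661 and Sirt3 (ENSMUSG00000025486, minus strand) the same chromosome from 140863666 to 140882309. Sirt4 (ENSMUSG00000029524, minus strand) is on chromosome 5 from 115478010 to 115484725, Sirt5 (ENSMUSG00000054021, plus strand) on chromosome 13 from 43365496 to 43395203, and Sirt7 (ENSMUSG00000025138, minus strand) on chromosome 11 from 120618372 to 120625240. Counts were taken over exons, and the exonic length ran from 2398 bases for Sirt4 to 6093 for Sirt5. Exons of Sirt3 overlap those of Psmd13 and Ric8a on the other strand over 12.72% of its exonic bases, the largest such share in the family. A strand setting is not stated, so the Sirt3 count is uncertain to that extent. Of the 50-base stretches (the read length) of Sirt5 transcripts, 14.18% also occur in transcripts of other genes. The mapping quality limit may lower the Sirt5 count there, which was not tested. These shares were 0 for Sirt4 and Sirt6, and at most 3.46% for Sirt1, Sirt2 and Sirt7.

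The promoters of 3 members are shown, from 250 bases before to 50 bases after the RefSeq start site (GRCm38.p6, read 5′ to 3′ on the strand of the gene). Sirt1 is shown as the member with the opposite pattern across mice, Sirt2 as the most abundant member and Sirt7 as the member with the highest fold change. In the Sirt1 promoter (chr10:63338986-63339285, minus strand) capitals mark CACGTG, the E-box, and TGACG, the core of the CRE bound by CREB, a factor that recruits p300 and CBP. The second E-box shares bases with the CRE core.
Sirt1: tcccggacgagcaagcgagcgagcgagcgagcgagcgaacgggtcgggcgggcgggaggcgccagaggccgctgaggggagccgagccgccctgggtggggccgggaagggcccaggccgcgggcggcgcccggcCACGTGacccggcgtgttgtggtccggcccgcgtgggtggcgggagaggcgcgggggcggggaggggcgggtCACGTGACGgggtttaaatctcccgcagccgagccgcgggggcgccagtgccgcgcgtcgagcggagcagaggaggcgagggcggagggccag
In the Sirt2 promoter (chr7:28766502-28766801, plus strand) capitals mark CCAAT on either strand.
Sirt2: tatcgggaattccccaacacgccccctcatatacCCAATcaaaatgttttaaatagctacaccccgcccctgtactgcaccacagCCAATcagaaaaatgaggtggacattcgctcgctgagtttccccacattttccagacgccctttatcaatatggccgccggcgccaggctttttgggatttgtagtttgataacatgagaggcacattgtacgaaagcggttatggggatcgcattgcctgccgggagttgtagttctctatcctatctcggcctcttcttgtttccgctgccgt
In the Sirt7 promoter (chr11:120624965-120625264, minus strand) capitals mark CCGGAAG, a core bound by ETS factors, and GCATGCGC, part of the element of NRF-1, a factor of nuclear genes for mitochondrial and growth functions.
Sirt7: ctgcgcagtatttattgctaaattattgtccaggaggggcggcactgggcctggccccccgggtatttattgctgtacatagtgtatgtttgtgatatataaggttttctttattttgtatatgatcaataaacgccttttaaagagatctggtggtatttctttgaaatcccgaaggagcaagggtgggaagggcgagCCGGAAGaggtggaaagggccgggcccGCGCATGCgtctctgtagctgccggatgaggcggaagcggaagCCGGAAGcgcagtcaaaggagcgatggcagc
The 3 windows differed in composition, with a GC content of 79.0% for Sirt1, 50.0% for Sirt2 and 51.3% for Sirt7. Both strands were searched for each motif. The E-box was found in 7.15% of the 32851 RefSeq promoters of this length and in 1 member, Sirt1, which held 2. The CRE core was found in 20.8% of all promoters and in Sirt1, Sirt3 and Sirt4, whereas the full CRE (TGACGTCA), found in 1.79% of all, was in 0 of the 9 windows of the family. CCAAT was found in 37.4% of all promoters and in Sirt2, Sirt3 and Sirt5. CCGGAAG was found in 8.86% of all and in Sirt3, Sirt6 and Sirt7, and GCATGCGC in 2.71% of all and in Sirt6 and Sirt7. A match is a description of the letters and not of a bound site.

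Libraries held between 23151568 and 28433823 counts. The targeted gene was read first. Ep300 had 1545, 1474 and 2334 normalized counts in the controls and 478, 1350 and 912 after recombination. The groups did not overlap, and p300-ifKO replicate 2 came closest to the controls. In DESeq2 its log2 fold change of −0.96 (SE 0.33) had an adjusted p of 0.991 (unadjusted p 0.00369). Libraries also differed in a trend with gene length, whose sign followed the groups except in p300-ifKO replicate 2. Over 13614 genes with a mean of at least 50 normalized counts, the difference of a library from the average library was related to exonic length, with a Spearman rho of −0.62 in p300-ifKO replicate 1 and −0.39 in replicate 3, against 0.22 to 0.57 in the other 4 libraries. With the GC content of the longest transcript, rho was 0.37 in p300-ifKO replicate 1 and 0.074 in replicate 3. It was −0.28 to −0.13 in the other 4 libraries (13606 genes). The 8 excitatory neuron markers summed to between 159845 and 184645 normalized counts per library.

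The order of the sirtuins in the hippocampus was examined on a scale per length, as normalized counts per kb of exon. Sirt2 was the most abundant with 733 ± 87.3 (SD, n = 6) per kb, above 95.2% of the 32774 genes with at least 1 count. It had 687, 688 and 700 per kb in the controls and 901, 669 and 752 in the p300-ifKO mice. Sirt7 followed with 272 ± 40.3 (SD, n = 6), then Sirt4 with 226 ± 12.1, Sirt3 with 195 ± 27.8 and Sirt6 with 184 ± 26.1. Sirt1, the most studied member, had only 98.0 ± 16.3 (SD, n = 6) per kb and Sirt5, a desuccinylase, 48.1 ± 5.33. The family thus ran from Sirt2, at 110 ± 6.80 TPM (SD, n = 6; transcript abundance scaled to a fixed total in each library), to Sirt5, at 7.19 ± 0.354 TPM, which still lay above 65.9% of the detected genes.

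**Figure D1:**
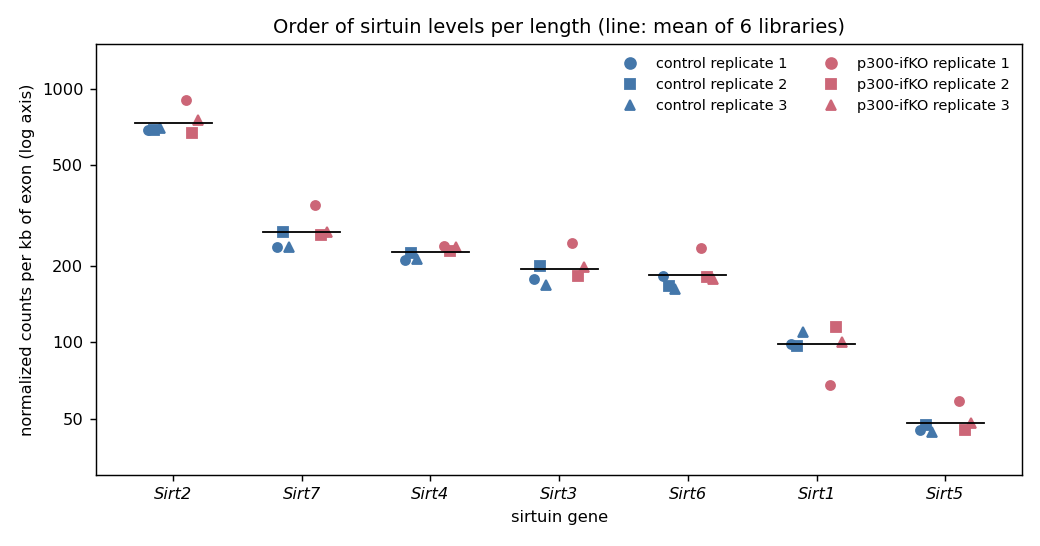
Normalized counts per kb of exon (log axis) of the 7 sirtuin genes in the 3 control and 3 p300-ifKO libraries, with a line at the mean of the 6. Sirt2 stood at 733 per kb, Sirt7, Sirt4, Sirt3 and Sirt6 lay between 184 and 272, and Sirt1 and Sirt5 lay at 98.0 and 48.1.

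Neighbours in this order were compared within libraries with an exact paired permutation test (two-sided, n = 6, smallest possible p 0.0312), adjusted over 6 pairs. The pairs and their direction came from the means of these same libraries. The smallest p is reached whenever the ratio has the same direction in all 6 libraries, however much its size varies. The SD of the log2 ratio was 0.098 for Sirt2 over Sirt7 and 0.443 for Sirt6 over Sirt1, with the same p. Sirt2 was above Sirt7 by a geometric mean of 2.70-fold, in 6 of 6 libraries (exact permutation p = 0.0312, adjusted p 0.0468). Sirt7 was above Sirt4 by 1.20-fold, Sirt6 above Sirt1 by 1.89-fold and Sirt1 above Sirt5 by 2.02-fold, each in 6 of 6 libraries and with the same exact permutation p as the first pair. Sirt4 was not above Sirt3 in every library (1.16-fold, 5 of 6 libraries, exact permutation p = 0.0625, adjusted p 0.0750), nor was Sirt3 above Sirt6 (1.06-fold, 5 of 6 libraries, exact permutation p = 0.0938, adjusted p 0.0938). The same order was found in the control mice alone and in the p300-ifKO mice alone. It depended on the length used: per kb of the longest annotated transcript, Sirt3 (363) came before Sirt4 (302), and Sirt5 (121) before Sirt1 (118). The Sirt2 value then was 1742 per kb, since its longest transcript of 2117 bases is much shorter than its 5035 exonic bases.

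Whether loss of p300 altered sirtuin transcripts was asked with the Wald test of DESeq2, adjusted over 32773 genes. Of the 7 sirtuins, 0 passed an adjusted p of 0.05, where 0.0061% of all genes passed, and 0 had an unadjusted p under 0.05, where 1.32% of all genes did. In the edgeR quasi-likelihood test, 0 of 7 passed too, where 2 of all genes did. In edgeR 0 of the 7 had an unadjusted p under 0.05, and the share over all genes is not given. In both tests the 2 genes that passed were Esr1 and Arsi. The paper describes a rise of these genes as a feature of the creERT2 driver mice. The fold change was positive for 6 members and negative for Sirt1, with a median of 0.16 on the log2 scale. Over all genes tested the median was −0.046, with 14841 of 32773 positive. All 7 sirtuins passed the filter on low counts, with at least 264 raw counts in each library.

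**Figure D2:**
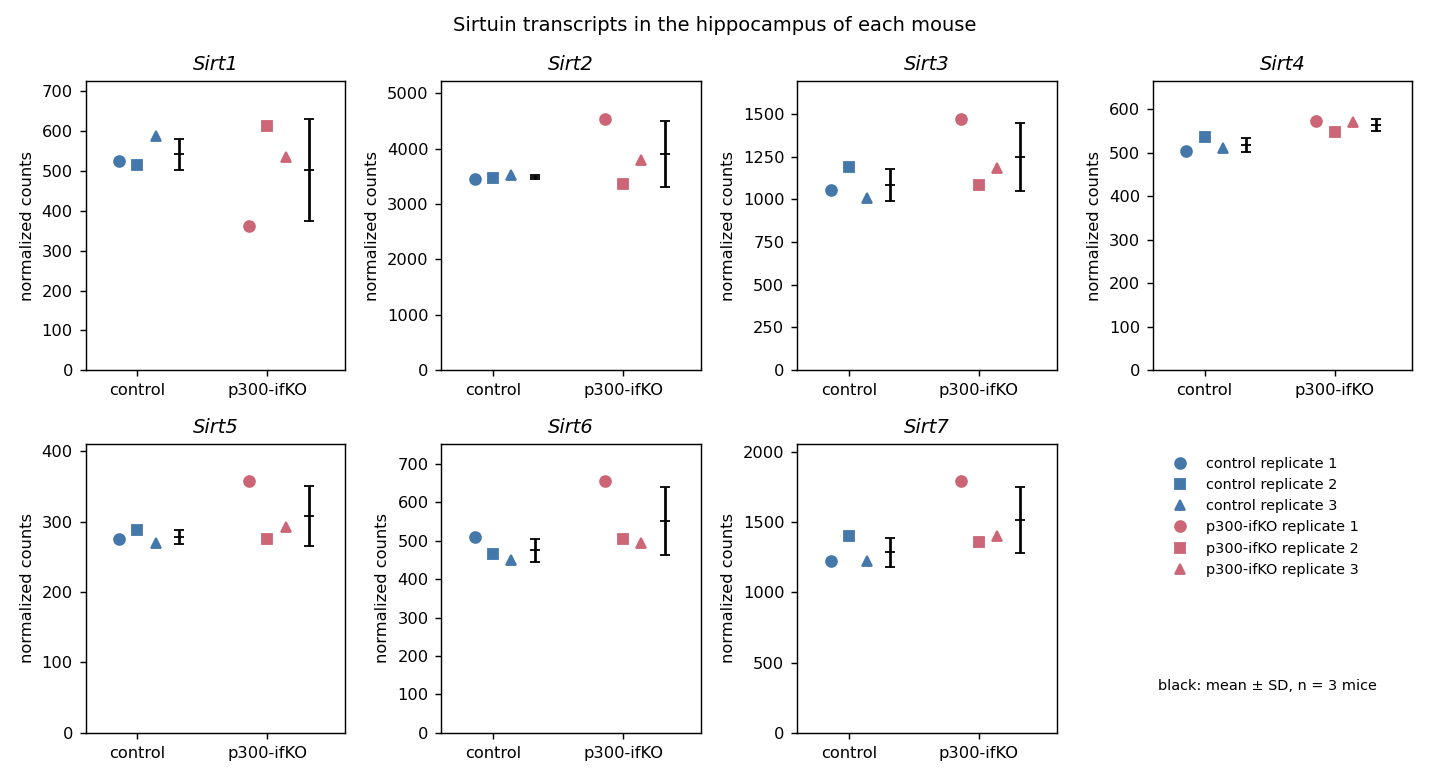
Normalized counts of each sirtuin gene in each mouse, by group, with mean ± SD (n = 3) in black. For 6 genes the highest point is p300-ifKO replicate 1, which is the lowest point for Sirt1, and the groups are apart only for Sirt4.

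Among the nuclear members, Sirt1 had 526, 514 and 587 normalized counts in the controls and 363, 612 and 534 in the p300-ifKO mice. The p300-ifKO libraries thus held both the lowest and the highest value, and the groups overlapped. Sirt1 averaged 542 ± 39.1 (SD, n = 3) in controls and 503 ± 128 (SD, n = 3) after deletion, with a log2 fold change of −0.11 (SE 0.21, 95% interval −0.52 to 0.31, adjusted p 0.991 in DESeq2). Sirt6 had 509, 466 and 450 normalized counts in the controls and 654, 504 and 495 in the p300-ifKO mice. Only replicate 1 exceeded all controls, and the log2 fold change was 0.21 (SE 0.17, 95% interval −0.12 to 0.54). Sirt7 had 1224, 1402 and 1223 normalized counts in the controls and 1788, 1360 and 1397 in the p300-ifKO mice. Here too p300-ifKO replicate 1 alone was above the controls, and the other 2 libraries lay just below control replicate 2. Its means of 1283 ± 103 (SD, n = 3) and 1515 ± 237 (SD, n = 3) gave the highest fold change of the family, 0.24 on the log2 scale (SE 0.16, 95% interval −0.071 to 0.55, unadjusted p 0.130 in DESeq2).

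The cytosolic member, Sirt2, had 3458, 3462 and 3523 normalized counts in the controls, a coefficient of variation of 1.04%. In the p300-ifKO mice it had 4538, 3367 and 3785, a coefficient of variation of 15.2%. The p300-ifKO libraries fell on both sides of the controls, with 2 above and 1 below. The log2 fold change was 0.16 (SE 0.14, 95% interval −0.12 to 0.45, unadjusted p 0.263 in DESeq2).

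The mitochondrial members are the main deacetylase of the organelle, Sirt3, the lipoamidase and ADP-ribosyltransferase Sirt4, and Sirt5. Sirt4 had 505, 537 and 511 normalized counts in the controls and 574, 548 and 571 in the p300-ifKO mice, and was the only sirtuin whose groups did not overlap. Among 13613 genes with a mean of at least 50 normalized counts, 3.76% had every p300-ifKO library above every control library and 3.15% the reverse, so 1 of 7 is a count of that order. Sirt4 averaged 518 ± 16.8 (SD, n = 3) in controls and 564 ± 14.1 (SD, n = 3) after deletion, a fold of 1.09 (95% interval 0.919 to 1.29), with an unadjusted p of 0.323 in DESeq2. An exact permutation test of these 6 values gave p = 0.1, the smallest that 3 against 3 allows. Any gene whose groups do not overlap gets this p, so it adds nothing to the lack of overlap. Sirt3 had 1057, 1188 and 1006 normalized counts in the controls and 1471, 1084 and 1185 in the p300-ifKO mice, with 1 library above all controls. Its log2 fold change was 0.20 (SE 0.16, 95% interval −0.12 to 0.52). The genes that overlap it, Psmd13, which codes for a proteasome subunit, and Ric8a, a chaperone of G protein subunits, had log2 fold changes of 0.26 (SE 0.18) and 0.13 (SE 0.13), with p300-ifKO replicate 1 highest in both, and the part of shared reads in the Sirt3 value was not tested. Sirt5 had 275, 288 and 269 normalized counts in the controls and 357, 275 and 293 in the p300-ifKO mice. Of the p300-ifKO libraries, 2 of 3 were above all controls. The log2 fold change was 0.15 (SE 0.17, 95% interval −0.18 to 0.48).

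Across the family, the 95% intervals all included no change. The highest upper bound was a fold of 1.46, for Sirt6 and Sirt7, and the lowest lower bound was a fold of 0.696, for Sirt1.

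The spread within the p300-ifKO group followed a single library. As a log2 difference from the mean of the 6 libraries, p300-ifKO replicate 1 was the highest library for 6 of 7 members and the lowest for Sirt1. Its differences were −0.51 for Sirt1, 0.086 for Sirt4 and between 0.29 and 0.37 for the other 5. Control replicate 3 was the lowest library for 4 of the 7. The range over the 6 libraries was widest for Sirt1, at 0.75, and narrowest for Sirt4, at 0.18. Sirt1 was thus the member that varied most between these libraries and Sirt4 the member that varied least. Each mouse gave a single library, so differences between mice and between library preparations cannot be told apart.

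**Figure D3:**
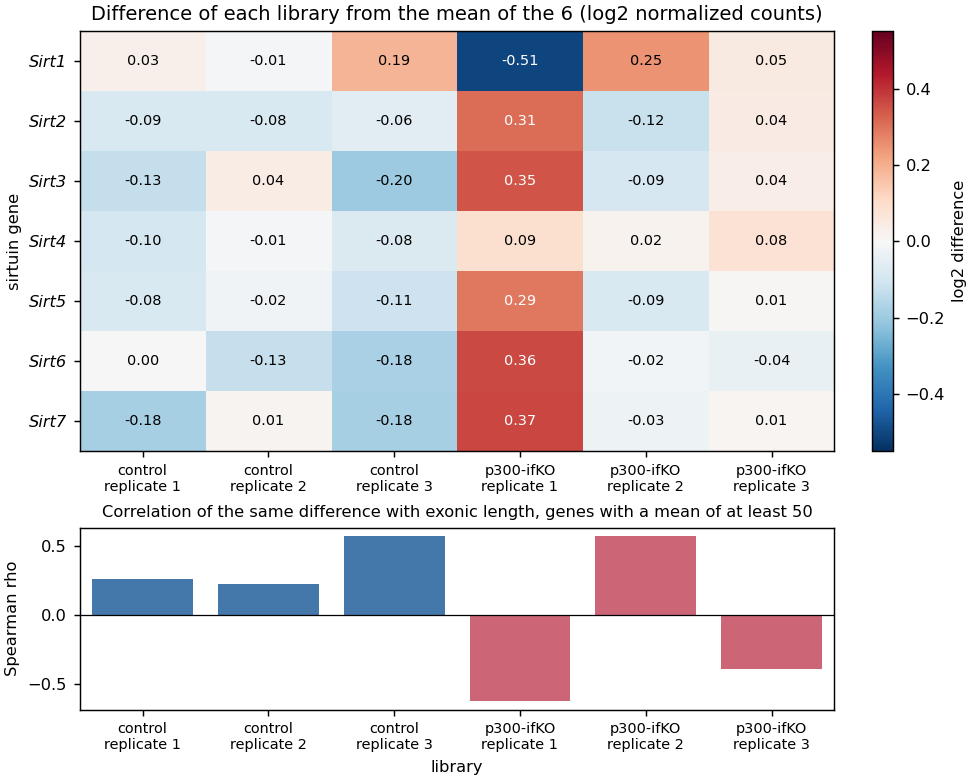
Upper part: log2 difference of each sirtuin in each library from the mean of the 6 libraries, as colour and number. Lower part: Spearman rho of the same difference with exonic length over 13614 genes; p300-ifKO replicate 1 has the strongest negative rho (−0.62) and, for all sirtuins but Sirt4, the difference farthest from 0.

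Without p300-ifKO replicate 1, all 7 sirtuins had a positive fold change, between 0.032 for Sirt5 and 0.11 for Sirt4, and Sirt1 changed sign to 0.080. Sirt2 was then at 0.038 in place of 0.16, and Sirt7 at 0.10 in place of 0.24. Sirt4, by contrast, was 0.11 without that library and 0.12 with it. Without p300-ifKO replicate 2, which had the highest Ep300 count of its group, the differences were larger, from −0.27 for Sirt1 to 0.32 for Sirt7. That library also had a Spearman rho of 0.57 with exonic length. The p300-ifKO libraries that remain had a negative rho and the controls a positive one. Genotype and the length trend thus cannot be told apart in the fit without it. Of the 7 sirtuins, 0 then passed in DESeq2, where 2.93% of all genes did. Sirt2 and Sirt7 then had unadjusted p of 0.0470 and 0.0465 in DESeq2, with adjusted p of 0.154 and 0.153, where 12.8% of all genes had an unadjusted p under 0.05. Sirt1 was the member with the lowest GC content in its longest transcript (43.97%), and Sirt6 that with the highest (58.38%). With smooth offsets for length and GC content, Sirt1 was at −0.022, Sirt6 at 0.089 and Sirt4 at 0.029. Sirt3 (0.32) and Sirt5 (0.26) were higher under the same offsets, and Sirt7 was at 0.24. With 1 surrogate variable, a term for unlabelled variation estimated from the counts, the 7 lay between 0.011 for Sirt5 and 0.13 for Sirt1. Sirt1 again changed sign. Ep300 was at −0.83 with the offsets and at −0.48 with the surrogate variable, against −0.96 in the main fit. The part of the length trend in the Ep300 counts was not tested.

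**Figure D4:**
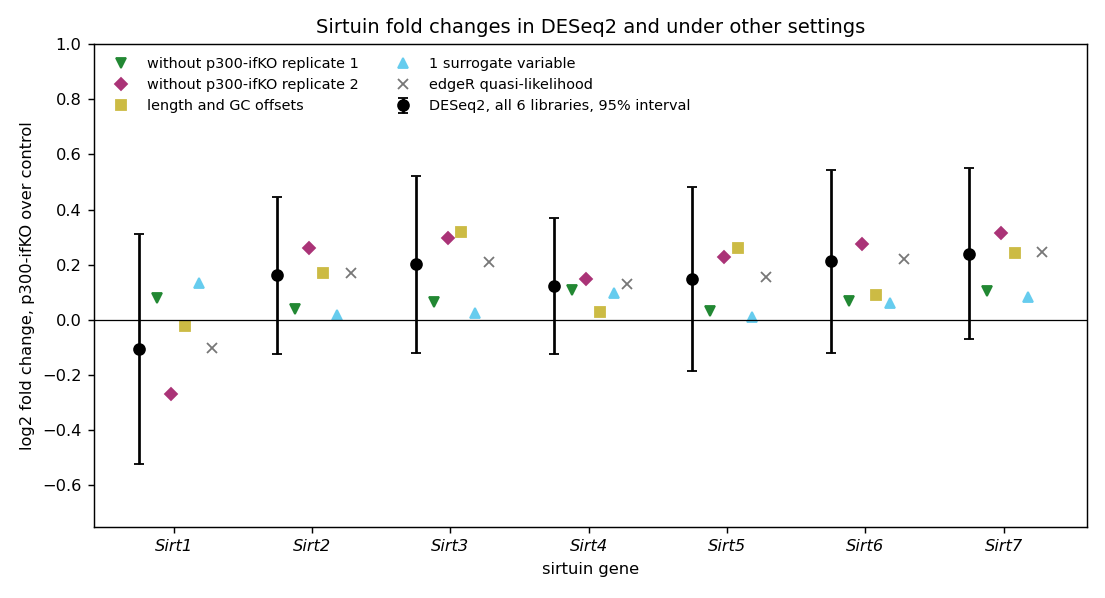
Log2 fold change of p300-ifKO over control for each sirtuin in DESeq2 with its 95% interval (black), and the value in edgeR, without p300-ifKO replicate 1 or 2, with length and GC offsets and with 1 surrogate variable. All 7 intervals cross 0, and the Sirt1 value lies on either side of 0 depending on the setting.

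Ratios between members within a library need no scaling between libraries. The log2 ratio of Sirt1 to Sirt7 counts was −1.22, −1.45 and −1.06 in the controls and −2.30, −1.15 and −1.39 in the p300-ifKO mice. Replicate 1 of the p300-ifKO group stood far below, while the other 2 lay within the range of the controls, and the difference of the group means, −0.37, did not pass (exact permutation p = 0.5, two-sided, n = 3 per group). The ratio of Sirt3 to Sirt7, in contrast, was nearly fixed across all 6 mice, from −0.33 to −0.21. Over the 6 libraries Sirt3 and Sirt7 had a Pearson r of 0.978, and Sirt1 had negative coefficients with all 6 other members, from −0.959 with Sirt5 to −0.504 with Sirt4. These coefficients describe 6 libraries that differ in the trends with length and GC content above. They carry no p.

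Since Sirt2 is known as an oligodendrocyte gene, its values were set beside the summed level of 9 oligodendrocyte markers (Mbp, Mobp, Mog, Mag, Cnp, Mal, Cldn11, Opalin and Ermn). Their sum was 81797, 90248 and 113246 normalized counts in the controls and 122969, 88307 and 102574 in the p300-ifKO mice, and the groups overlapped. Of the 9 markers, 6 had a positive and 3 a negative fold change, with a median of 0.17 on the log2 scale and 0 calls in DESeq2, beside 0.16 for Sirt2 itself. Replicate 1 of the p300-ifKO group was highest for the sum and for Sirt2. Control replicate 3 had the second highest sum, but a Sirt2 level like that of the other controls. The part of these markers in the Sirt2 value was not tested.

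Marker lists of other cell types were read in the same way. Microglia markers summed to between 7746 and 8426 normalized counts in the controls and between 8566 and 9495 in the p300-ifKO mice, and astrocyte markers to between 106191 and 109752 and between 93275 and 105015, so that the groups of these lists did not overlap. The genes of each list were mixed. Of 6 microglia markers, 4 had a positive and 2 a negative fold change (median 0.097). Of 6 astrocyte markers, 2 were positive and 4 negative (median −0.096). In each of these lists 0 passed in DESeq2, and 1 had an unadjusted p under 0.05, where 1.32% of all genes did. Of single genes with a mean of at least 50 normalized counts, 3.76% had groups apart with p300-ifKO above and 3.15% with p300-ifKO below. These are shares of single genes, and none is given for sums. Sums of excitatory neuron, interneuron, endothelium, choroid plexus and blood markers overlapped between groups, those of choroid plexus over a wide range, from 733 to 5459. No marker of any list was at 0 in a library. The part of these lists in the sirtuin values was not tested.

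Genes whose pattern over the 6 libraries was most like that of a sirtuin were sought among 13613 genes by the Pearson r of log2(normalized count + 1). For Sirt1 they were Wwtr1 (r 0.9989), which codes for the Hippo pathway coactivator TAZ, and Spred1 (r 0.9981), an inhibitor of the ERK pathway. For Sirt2 they were Mecr (r 0.9992), an enzyme of mitochondrial fatty acid synthesis, and Psph (r 0.9989), an enzyme of serine synthesis. For Sirt3 they were Abcg2, a transporter of the blood-brain barrier, and Btd, which recycles biotin and had the lower r of the pair (0.9979). For Sirt5 they were Txnrd2 (r 0.9991), the mitochondrial thioredoxin reductase, and Psmd8 (r 0.9986), a proteasome subunit. For Sirt6 they were Pgap3 (r 0.9969) and Mmgt2 (r 0.9952), and for Sirt7 Mon1a (r 0.9934) and Gm2415 (r 0.9934). Sirt4 had no such close match: Isy1 (r 0.9748), a splicing factor, and Fbxw4 (r 0.9716) came first. Such coefficients were common, since 20.0% of genes had an r over 0.9 with Sirt5 and 18.0% with Sirt1, but only 0.764% with Sirt4. The likeness describes these 6 libraries, which differ in their trends with length and GC content.

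The genes around the sirtuins were read as 3 lists. Of 20 genes of NAD metabolism, which make, move or use the cosubstrate of sirtuins, 0 passed in DESeq2 in either direction. Of these, 7 had a positive and 13 a negative fold change, with a median of −0.087 on the log2 scale, and 1 had an unadjusted p under 0.05, as did 1.32% of all genes. That gene was Nmnat1, the nuclear enzyme that makes NAD, at 153 ± 4.03 (SD, n = 3) normalized counts without and 201 ± 17.1 (SD, n = 3) with the deletion. DESeq2 gave 0.39 on the log2 scale (SE 0.18), adjusted p 0.991 and unadjusted p 0.0281. Of its p300-ifKO libraries, 3 of 3 were above all controls, as for 3.76% of the genes with a mean of at least 50 normalized counts. In this list 2 of 20 genes, Nmnat1 included, had groups apart in this direction. The reverse held for 0 of 20, and for 3.15% of genes at that mean count. Nampt, the rate-limiting enzyme of NAD salvage, had 1953 ± 31.2 (SD, n = 3) and 1806 ± 311 (SD, n = 3) normalized counts, a log2 fold change of −0.11 (SE 0.16). The lowest value of the list was that of Qprt (−0.59, SE 0.68), which makes NAD precursors from tryptophan, at 13.0 ± 4.86 (SD, n = 3) and 8.68 ± 5.55 (SD, n = 3) normalized counts. Nampt, and Ccar2 and Ppargc1a of the lists that follow, were named after their values were seen.

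Of 5 regulators and binding partners of sirtuins, 0 passed, with 2 positive and 3 negative and a median of −0.14. The highest was Rps19bp1, which codes for the Sirt1 activator AROS (0.33, SE 0.27), and the lowest Usp22, the deubiquitinase that stabilizes Sirt1 (−0.16, SE 0.13). Ccar2, which codes for the Sirt1 inhibitor DBC1, had 2913 ± 118 (SD, n = 3) and 2948 ± 206 (SD, n = 3) normalized counts, a log2 fold change of 0.018 (SE 0.12). Of 19 genes for proteins that sirtuins act on, 0 passed and 0 had an unadjusted p under 0.05 in DESeq2, with 11 positive, 8 negative and a median of 0.083. They lay between −0.38 (SE 0.61) for Cps1, the carbamoyl phosphate synthetase that Sirt5 acts on, with 13.6 and 10.4 normalized counts on average, and 0.27 (SE 0.21) for Mlycd, the malonyl-CoA decarboxylase that Sirt4 acts on. Of the 19, 2 had every p300-ifKO library above every control library and 1 the reverse. The shares among genes with a mean of at least 50 normalized counts were 3.76% and 3.15%. Without p300-ifKO replicate 2, 1 of the 19 passed in DESeq2: Ppargc1a, the coactivator of mitochondrial genes that Sirt1 acts on, at −0.52 (adjusted p 0.0422). Of all genes, 2.93% passed in that fit. In edgeR without that library, 0 of the 19 passed. With all 6 libraries it had 1228 ± 130 (SD, n = 3) and 991 ± 271 (SD, n = 3) normalized counts, or −0.31 on the log2 scale (SE 0.22), unadjusted p 0.153 in DESeq2.

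**Figure D5:**
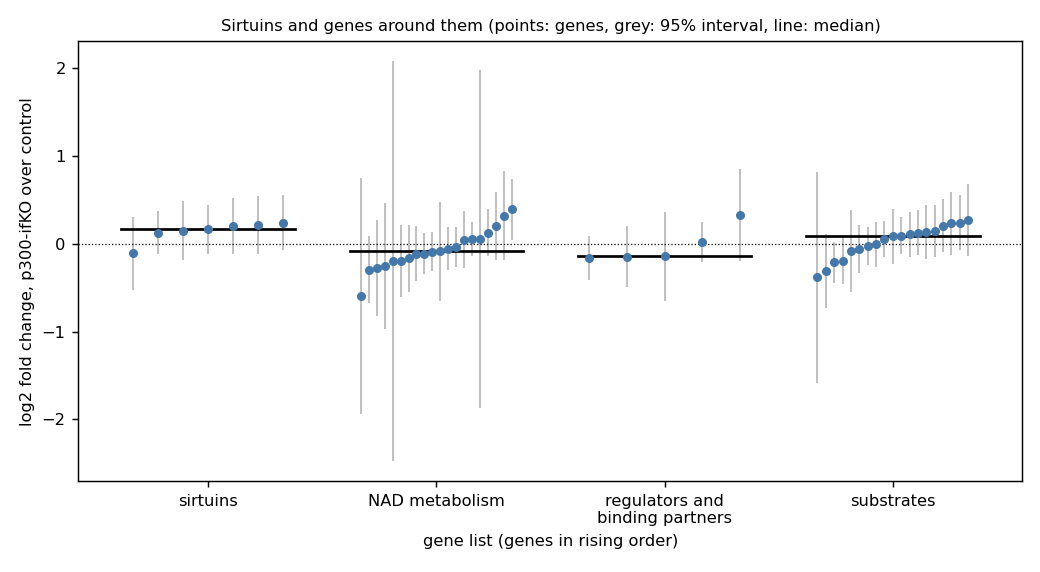
Log2 fold change of p300-ifKO over control with its 95% interval for the 7 sirtuins, 20 genes of NAD metabolism, 5 regulators and binding partners and 19 substrates, with a line at each median. Medians were 0.16, −0.087, −0.14 and 0.083, and the widest intervals belong to genes with few counts.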

How the data were processed

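Total RNA of the hippocampus of 6 mice was sequenced by the authors as single-end 50-base reads. They trimmed adapters, aligned with STAR (2.6.1) to GRCm38, kept reads with a mapping quality above 10 and counted them on Ensembl exons with Rsubread, and the deposited values are raw counts per gene. All per-sample columns were used. Groups and replicate numbers came from sample titles. Symbols, coordinates and transcripts came from GENCODE M21 on the same build, to which 99.57% of identifiers matched, and promoters from RefSeq.

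The comparison used DESeq2 (1.42.0 in R 4.3.3; the study used 1.30.1), with a two-sided Wald test, median-of-ratios size factors and Benjamini-Hochberg adjustment over 32773 genes at 0.05. The edgeR quasi-likelihood test (4.0.16) and limma-voom (3.58.1), sva (3.50.0) and mgcv (1.9.3) gave alternatives. Intervals are estimate ± 1.96 SE. The tools were tested on simulated counts that held no trend with length or GC content, so the test does not cover such a trend. Each library came from a single mouse. Named genes were all members, list genes with an unadjusted p under 0.05, list extremes and the 2 genes most like each member. The members, lists, surrogate variable and offsets were chosen with earlier results of these data known. A gene of the oligodendrocyte list is not reported here, and the list was shortened after its values were seen, so the planned correlation of sirtuins with that list was left out.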

Additional observations from a re-analysis of the deposited data

How the results depend on the processing

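Of 7 sirtuins, 0 passed under each of the 18 alternatives, and over all of them the smallest adjusted p was 0.153. Sirt2 to Sirt7 kept a positive sign throughout. Leaving out each replicate, Sirt1 ranged from −0.27 to 0.080, and it changed sign without p300-ifKO replicate 1 (0.080) and with 1 surrogate variable (0.13); the cause was not tested. The count over all genes was 2 in DESeq2 and 4 with the replicate block, and from 2 to 938 when leaving out each replicate, with 938 without p300-ifKO replicate 2; edgeR without that library, a fit chosen after seeing the data, called 2. Mice with the same number did not deviate together in every pair (correlations of 0.27, −0.28 and 0.13), so the numbers were not taken to pair them, and the block changed no sirtuin call. Leaving out each replicate, from 0 to 1 sirtuin substrate passed (Ppargc1a, without p300-ifKO replicate 2; 0 in edgeR), and from 0 to 0 neighbour pairs of the level order, since 5 libraries allow no exact permutation p under 0.0625; the order itself was the same each time. The planned correlation of the sirtuins with oligodendrocyte markers is not reported, nor are its alternatives (median of the markers, TMM factors, leaving out each replicate).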
